A study of Arabidopsis thaliana with 15 samples.

Results

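The genes described here are nuclear genes of Arabidopsis thaliana that encode proteins of the cytosolic ribosome. They were chosen from a list of 60 loci, 44 of the large (60S) and 16 of the small (40S) subunit, which stand for 27 different ribosomal proteins, and a locus was kept if a probe set on the array was annotated to it and to no other gene. Of the 60 loci, 37 had such a probe set, 27 for the large and 10 for the small subunit, covering 21 proteins, out of 13286 loci named on the array. Each of the 37 had 1 probe set. The other 23 loci were left out, 5 of them because the probe set covering them names several genes.

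The cytosolic ribosome translates the mRNAs that the nucleus exports, and it is built in the nucleolus from ribosomal RNA and a fixed set of proteins. In Arabidopsis most of these proteins are encoded by small families of closely related genes, called paralogs below, so that the same position in the ribosome can be filled by the product of any of several genes. Ribosomal protein genes are known for high mRNA levels in dividing and growing cells, which in the root lie near the tip, and some single-gene mutants have defects of leaf shape or root growth.

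The arrays (Affymetrix ATH1, 15 in all) measured RNA from protoplasts of seedling roots of the Columbia ecotype that had been separated by fluorescence-activated cell sorting. Every seedling was grown for 5 days on full medium and then kept for 3 h on medium lacking sulfur, and no array of full-medium roots was analysed here, so all comparisons are between cell populations under sulfur deficiency. The 5 populations, each with 3 arrays, were the columella root cap (marker line Pet111), the epidermis together with the lateral root cap (pWER::GFP), the cortex (pCOR::GFP), the endodermis together with the quiescent center (pSCR::GFP) and the stele (pWOL::GFP). A population is defined by where its marker line fluoresces, and the pWER and pSCR lines each mark more than a single tissue. The labels number the replicates but do not say whether they came from separate plantings, so a p-value here reflects only how far these particular samples scatter, and that scatter may be technical.

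Before the results, 2 arrays need a remark. Across all tested probe sets, epidermis replicate 2 correlated best with stele replicate 2 (r = 0.973) and at most 0.826 with its own population. Stele replicate 1 correlated best with epidermis replicate 3 (r = 0.965) and at most 0.845 with its own. The main counts of member genes and of paralog pairs are therefore given for the 15 arrays as labelled and again without both of these arrays. Values of single genes and paralog ratios, and some counts, are as labelled unless stated otherwise. Of the marker genes of the sorted tissues, 1 of 1 columella gene, 4 of 4 cortex genes, 3 of 3 endodermis genes, 2 of 2 epidermis genes and 1 of 2 stele genes were called higher in their own population, and 2 of 2 stele genes without both arrays. As labelled, 6.5% to 13.3% of all probe sets were called higher in a population. The markers were chosen with earlier results of these data known, so their counts are no independent check. Without both arrays the columella gene was called higher in the epidermis as well (1.86). The 4 cortex genes were also called higher in the endodermis (3 without both arrays), with a median difference of 1.47 against 3.97 in the cortex. Of the endodermis genes, 1 of 3 was called higher in the cortex (2 of 3 without both arrays). Of 2 stem cell genes, AGL42 was called higher in the endodermis population (1.13) and BBM, at 0.52, was not. In the stele these 2 genes differed by -0.61 and 1.23, with 0 called. Without both arrays 1 of them was called higher in the stele (2.41). The ratio of 3′ to 5′ signal of the actin control, a measure of RNA length after amplification, lay between 6.56 and 28.3 on 14 arrays and was 43.0 on endodermis replicate 2.

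Levels are given as log2 of the array signal plus 16 after quantile normalization, so 1 unit is a doubling for bright probe sets and less than the true change for dim ones, and 4 is the lowest value possible. Levels of different probe sets were not compared with each other as a result, because probe affinities differ. They were ranked only to pick some of the genes to name. A probe set was tested if it lay above the 40th percentile of an array (a log2 level of 5.61) on at least 3 arrays, which left 16126 probe sets and 35 of the 37 ribosomal protein genes. The 2 genes that did not meet this rule were AT3G51190 (RPL8, a protein near the catalytic center of the large subunit), whose level was 4.22 to 5.88 over the 15 arrays and above 5.61 on 2 of them, and AT3G48960 (RPL13), at 4.18 to 5.29. For both genes every population overlapped others, and they are left out of all counts that follow.

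The 35 tested genes varied together across the root. In limma's moderated F test of equal population means, 32 of 35 passed at an adjusted p under 0.05 (Benjamini-Hochberg over all tested probe sets), against 66.1% of all probe sets tested. All 35 passed without both arrays in doubt, against 83.1%. The 3 genes that did not pass as labelled were AT3G53430 (RPL12, adjusted p = 0.0513), AT3G02560 (RPS7, adjusted p = 0.102) and AT3G49910 (RPL26, adjusted p = 0.188). The range of the 5 population means had a median of 2.02 log2 units over the genes and was at least 0.94. The lowest population mean was that of the cortex for 34 of 35 genes and that of the columella for 1. The highest was the stele for 27 genes, the epidermis for 6, the endodermis for 1 and the columella for 1, and without both arrays in doubt the stele for 31, the epidermis for 3 and the columella for 1.

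**Figure D1:**
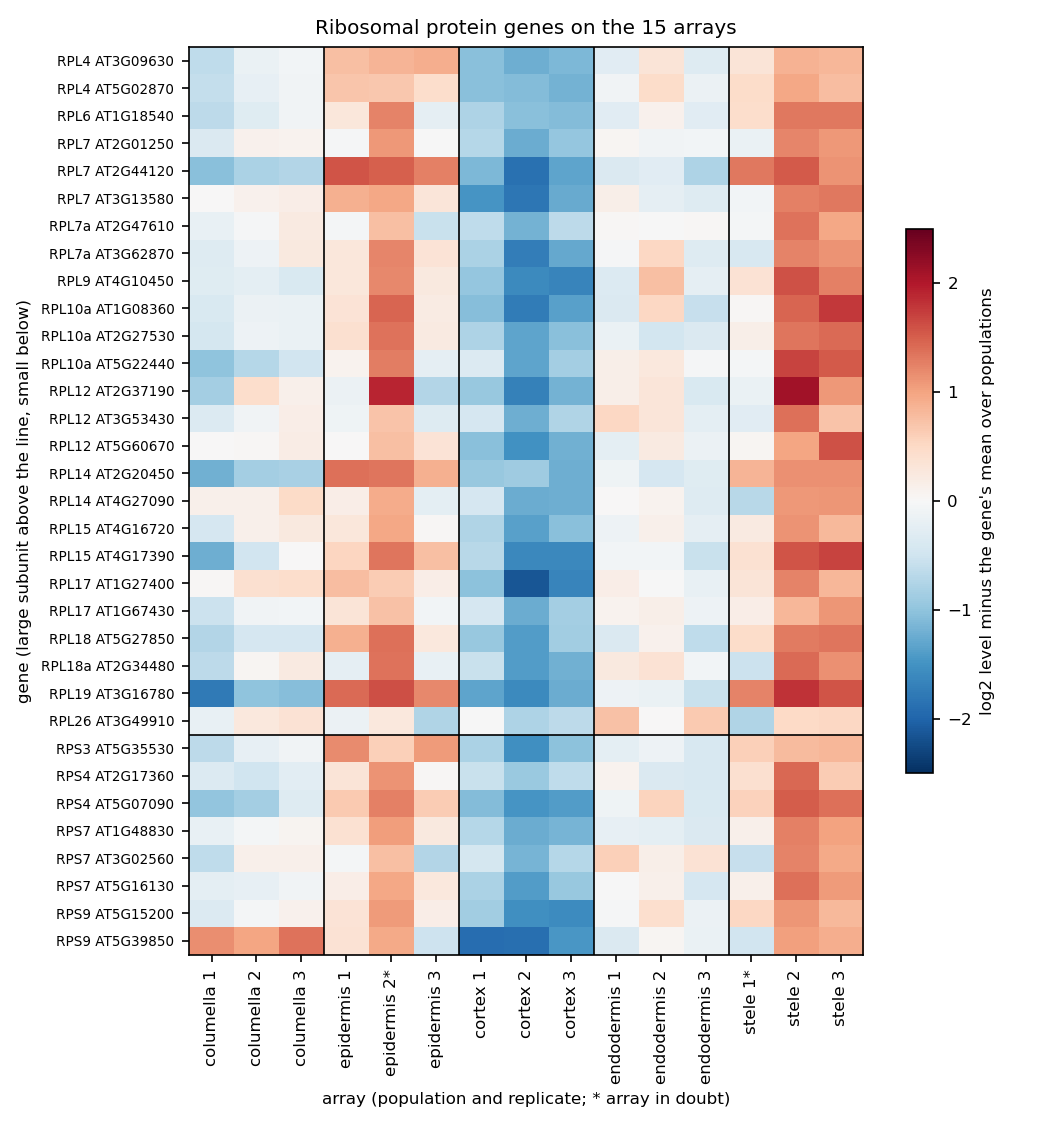
Levels of 33 of the 35 tested ribosomal protein genes (rows) on the 15 arrays (columns, by population and replicate), as log2 level minus the gene's mean over the 5 populations (colour scale in log2 units, red above and blue below the mean). The 3 cortex columns are blue in nearly every row, stele replicates 2 and 3 and epidermis replicate 2 are the reddest columns, and the row AT5G39850 departs from the rest.

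Cortex cells had the lowest mRNA levels of ribosomal protein genes of the 5 populations. Compared with the mean of the other 4 populations, 31 of the 35 genes were called lower in the cortex (a log2 difference of 1 or more in size, with an adjusted p under 0.05) and 0 higher, where 14.6% of all tested probe sets were called lower and 13.3% higher. The median difference was -1.38 on the log2 scale, with a range of -2.18 to -0.60, beside a median of -0.07 over all tested probe sets. All 3 cortex arrays lay below all 12 others for 25 of 35 genes, against 10.4% of all probe sets. Leaving out both arrays in doubt gave 33 genes called lower, against 16.4%, and 26 had no overlap, against 11.0%. In sorted bulk RNA, fewer cells of a type within a sort and less RNA per cell cannot be told apart.

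By the main setting, the steepest falls in the cortex were of a small and a pair of large subunit genes. AT5G39850 (RPS9, a protein at the mRNA entry side of the small subunit) stood at 4.27, 4.29 and 4.73 on the cortex arrays and at 5.65 to 7.53 on the other 12. The cortex arrays were thus near the lowest value possible and apart from all the rest. The difference was -2.18 ± 0.32 (SE, n = 3 arrays against 12; limma adjusted p = 7.2e-05). Its size rests on the value added before the log, since it was -3.73 with 1 and -1.10 with 64 in place of 16, and so does its place in the order of genes.

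AT1G27400 (RPL17, which in yeast lines the tunnel through which the new peptide leaves) had levels of 8.47, 7.36 and 7.85 in the cortex. Its other arrays read 9.53, 9.90 and 9.94 in the columella, 10.28, 10.14 and 9.66 in the epidermis, 9.67, 9.49 and 9.32 in the endodermis and 9.81, 10.73 and 10.33 in the stele. No cortex array reached any of them. Its difference was -2.01 ± 0.24, a 4.02-fold lower level (limma adjusted p = 1.1e-05).

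AT3G13580 (RPL7, a protein of the large subunit body) stood at 8.31, 7.99 and 8.53 in the cortex, while its lowest array elsewhere, in the endodermis, read 9.48. Here too the groups did not overlap. The difference was -1.90 ± 0.26 (limma adjusted p = 3.7e-05). For these 3 genes the cortex difference stayed between -2.34 and -1.73 when any 1 array was left out, at the main pseudocount of 16.

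The 4 genes not called lower in the cortex had negative differences as well. They were AT3G53430 (RPL12) at -0.99, AT3G02560 (RPS7) at -0.96, AT2G17360 (RPS4) at -0.89 and AT3G49910 (RPL26) at -0.60. RPL26, whose protein in yeast sits at the tunnel exit, read 10.35, 9.58 and 9.69 in the cortex, within the range of 9.60 to 11.08 that it had elsewhere apart from the lowest cortex array.

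Stele cells had the highest levels for most of the genes. As labelled, 19 of 35 genes were called higher in the stele than in the mean of the other populations and 0 lower, against 6.5% of all tested probe sets called higher and 5.89% lower. The median difference was 1.03, beside 0.00 over all tested probe sets, and all 35 differences were positive. No gene had all 3 stele arrays above the other 12, against 0.378% of all probe sets. Without both arrays in doubt 33 genes were called higher, against 12.9% of probe sets, with a median of 1.44, and for 28 the 2 remaining stele arrays lay above all 11 others, against 10.3%. The 19 genes called as labelled were all among the 33. The count was 34 without stele replicate 1 and 11 without stele replicate 2 or stele replicate 3, fits for which no share over all probe sets was taken. 2 signs of array quality were set beside these levels. The median deposited signal was lowest on the cortex arrays (47.9, 46.1 and 49.5), where ribosomal protein genes were lowest. It was highest on epidermis replicate 2 (80.9), stele replicate 2 (77.3) and stele replicate 3 (76.3), where ribosomal protein genes were highest. The actin 3′ to 5′ ratio was 28.3, 22.0 and 23.0 on those last 3 arrays, 9.40 and 9.47 on the other epidermis arrays, 16.9 on stele replicate 1 and 13.4 to 17.7 on the cortex arrays. It was 11.2 to 12.8 on the columella arrays, 6.56 and 7.15 on endodermis replicates 1 and 3 and 43.0 on endodermis replicate 2. The part of either sign in the result was not tested. With the deposited scaling in place of quantile normalization, 29 genes were called lower in the cortex and 14 higher in the stele, again with no share taken. The 2 genes not called without both arrays were AT5G35530 (RPS3, at the mRNA entry of the small subunit) at 0.96 and AT3G49910 (RPL26) at 0.58.

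The largest stele difference was that of AT3G16780 (RPL19, which in yeast takes part in a bridge between the subunits). It read 12.30, 12.88 and 12.64 in the stele and 12.48, 12.69 and 12.28 in the epidermis. The endodermis followed at 10.94, 10.91 and 10.52, and the cortex (9.76, 9.48 and 9.84) and columella (9.30, 10.06 and 10.01) were lowest. Stele and epidermis overlapped with each other and lay above all other arrays, and columella and cortex overlapped at the low end. The stele difference was 1.92 ± 0.19, a 3.79-fold higher level (limma adjusted p = 5.3e-05), and the epidermis difference was 1.76 ± 0.19 (limma adjusted p = 7.5e-05). AT2G44120 (RPL7) was likewise high in both populations. It stood at 11.97, 12.17 and 11.77 in the stele and at 12.22, 12.14 and 11.90 in the epidermis, above 8.78 to 10.36 on the other 9 arrays, and its stele difference was 1.66 ± 0.18 (limma adjusted p = 7.7e-05).

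In the epidermis with lateral root cap, 10 of 35 genes were called higher and 0 lower, against 6.95% of all tested probe sets called higher and 6.1% lower. The median difference was 0.66, and 33 of 35 differences were positive. By adjusted p alone 16 genes were higher, against 13.9%. Without both arrays in doubt 6 genes were called, against 11.6%, all of them among the 10, and the median was 0.33. For 2 genes, AT5G35530 (RPS3) among them, the remaining epidermis arrays then lay above all other 11, against 9.47% of probe sets. RPS3 read 13.25, 12.66 and 13.12 in the epidermis, where replicate 2 lay just below the stele values of 12.67, 12.86 and 12.89 and the other replicates above them. Its epidermis difference was 1.18 ± 0.18 as labelled (limma adjusted p = 0.00057).

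In the columella 1 gene was called higher and 4 lower, against 11.7% of all tested probe sets in each direction, and the median difference was -0.28. The same 5 genes were called without both arrays in doubt, against 12.3% of probe sets higher and 12.8% lower. By adjusted p alone 7 genes were lower, against 19.8% as labelled. The gene called higher was AT5G39850 (RPS9), at 7.35, 7.16 and 7.53 in the columella. In the epidermis it read 6.53, 7.13 and 5.65, in the stele 5.69, 7.21 and 7.08, and in the endodermis between 5.81 and 6.22. The columella was highest on average but overlapped 1 stele array. Its difference was 1.46 ± 0.32 (limma adjusted p = 0.0021), which became 0.90, too small for a call, when 64 instead of 16 was added to the signals.

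Among the genes called lower in the columella were AT3G16780 (RPL19, -1.60 ± 0.19), AT2G20450 (RPL14, -1.19 ± 0.17) and AT2G44120 (RPL7, -1.07 ± 0.18). In the cortex, a comparison that shares its arrays with that of the columella, these 3 genes differed by -1.73, -1.28 and -1.80. AT2G20450 read 7.40, 7.75 and 7.77 in the columella and 7.64, 7.70 and 7.37 in the cortex. These 6 values overlapped and lay below all others, which were 8.17 to 8.49 in the endodermis and 9.45 to 9.97 in the epidermis and stele.

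The endodermis with quiescent center was close to the mean of the other populations. Of 35 genes 0 were called higher, against 7.83% of all tested probe sets, and 0 lower, against 3.42%. The counts were also 0 and 0 without both arrays in doubt, against 9.18% and 4.71%. At an adjusted p under 0.05 with no threshold of size, limma called 0 higher, against 11.4%, and 1 lower, against 8.1%. That gene was AT2G44120 (RPL7) at -0.59 ± 0.18. The differences ran from -0.73 to 0.58 with a median of -0.09, beside -0.09 over all tested probe sets.

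**Figure D2:**
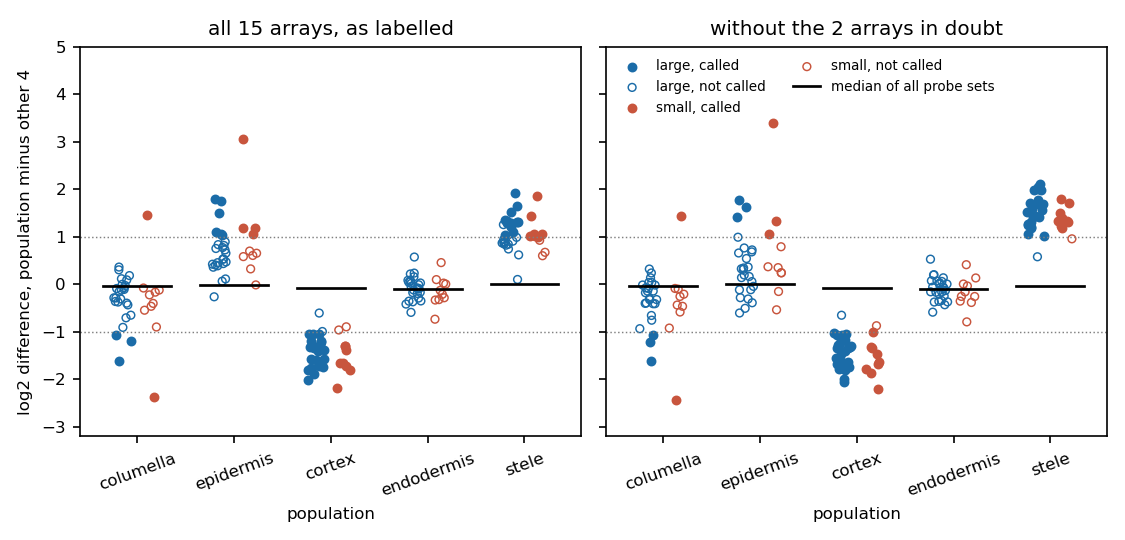
Log2 difference between each population and the mean of the other 4 (y axis) for the 35 tested genes, with large subunit genes in blue and small subunit genes in red, filled where called. The left panel uses all 15 arrays and the right panel leaves out the 2 arrays in doubt. The cortex points lie below 0 in both panels, and 19 filled stele points on the left become 33 on the right.

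Large and small subunit genes were described side by side, with no test of their difference. In the cortex 23 of 25 large subunit genes were called lower (median -1.34) and 8 of 10 small subunit genes (median -1.52). In the stele 12 of 25 and 7 of 10 were called higher (medians 1.05 and 1.02). In the epidermis 6 of 25 and 4 of 10 were called higher (medians 0.66 and 0.68).

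For each array the median centred level over all 35 genes, each gene being centred on its mean over populations, gives the size of the common movement. It was -0.80, -1.39 and -1.18 on the cortex arrays and -0.44, -0.13 and -0.06 on the columella arrays. It was -0.09, 0.11 and -0.31 in the endodermis, 0.35, 1.09 and 0.22 in the epidermis and 0.16, 1.26 and 1.10 in the stele. The cortex arrays lay below all others, epidermis replicate 2 was far above the other epidermis arrays and stele replicate 1 far below the other stele arrays. The large subunit median minus the small subunit median on the same array averaged 0.08 ± 0.02 in the columella (SD, n = 3), 0.01 ± 0.12 in the epidermis, 0.06 ± 0.08 in the cortex, 0.06 ± 0.03 in the endodermis and 0.00 ± 0.22 in the stele. On all 3 columella arrays and all 3 endodermis arrays the large subunit median was the higher, by 0.10 or less. In the epidermis and stele the sign depended on the setting, with -0.05 and -0.03 in the deposited scaling and -0.06 and 0.15 without both arrays in doubt.

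**Figure D3:**
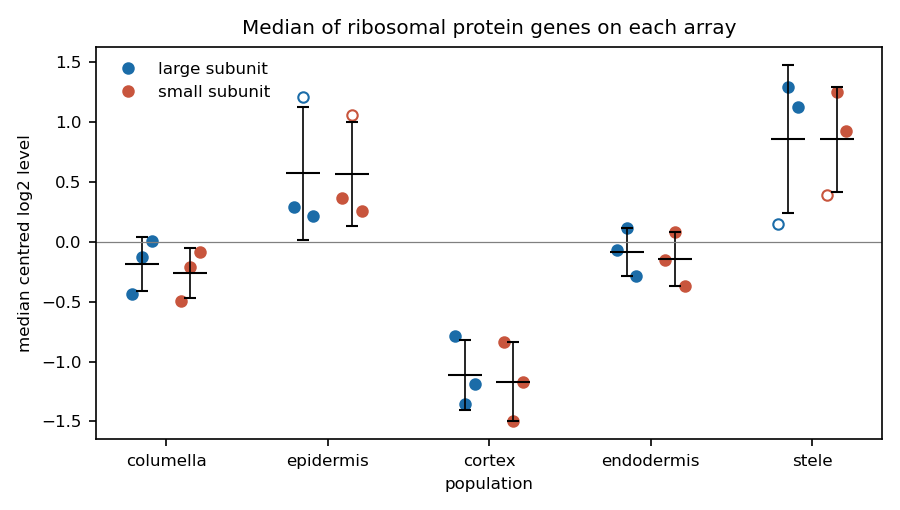
Median centred log2 level of the large (blue) and small (red) subunit genes on each array, by population; horizontal bars are means and error bars SD over 3 arrays, and open circles are the 2 arrays in doubt. Both subunits fall together in the cortex and rise together in the stele, and the open circles lie away from their own populations.

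How closely each gene followed the rest was described by the correlation of its levels with the median centred level of the other tested ribosomal protein genes over the 15 arrays, which share libraries and normalization. The median of these correlations was 0.938. It was over 0.9 for 25 of 35 genes and over 0.8 for 31. The closest was AT5G16130 (RPS7, r = 0.988). Among the lowest values were those of AT3G49910 (RPL26, r = 0.469), AT5G39850 (RPS9, r = 0.694) and AT3G02560 (RPS7, r = 0.790). As labelled, RPL26 had its highest mean in the endodermis, with 11.08, 10.37 and 11.00 there and 9.60, 10.85 and 10.87 in the stele. The stele value of 9.60 was that of replicate 1, an array in doubt. Without both arrays in doubt its highest mean was in the stele, and its correlation was 0.543.

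**Figure D4:**
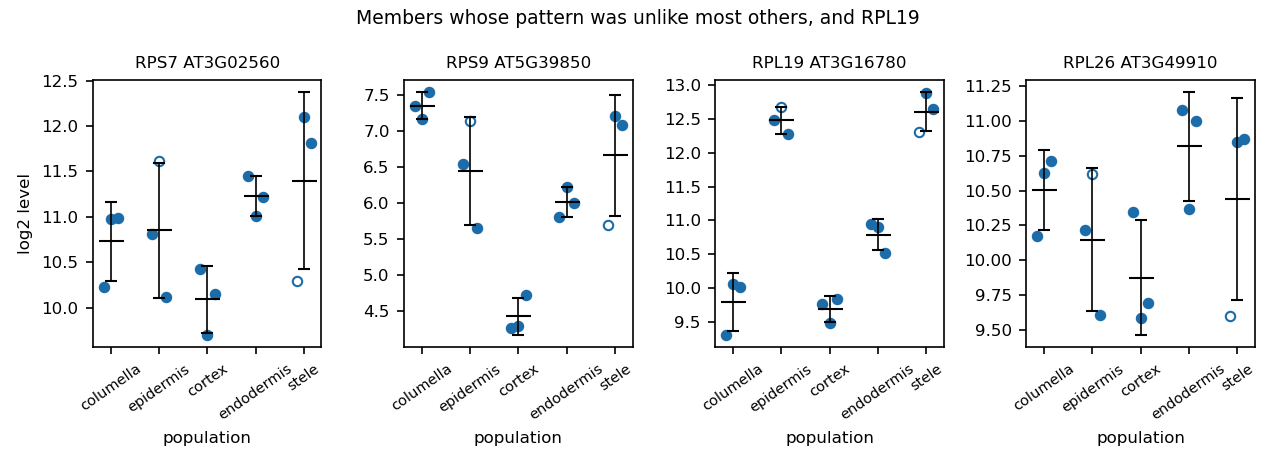
Log2 level (y axis, a separate scale for each gene) of the RPS7 gene AT3G02560, the RPS9 gene AT5G39850, the RPL19 gene AT3G16780 and the RPL26 gene AT3G49910 on each array by population, with mean and SD over 3 arrays; open circles are the 2 arrays in doubt. AT3G16780 is high in epidermis and stele, AT5G39850 is highest in the columella, and the populations of AT3G49910 and AT3G02560 overlap.

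Paralogs of the same protein were compared by the ratio of their levels. Among the tested genes, 12 proteins had at least 2 members, which made 20 pairs. For each pair the log2 ratio of the probe sets was taken on every array, which removes whatever both genes share on that array, and the ratios were compared across the 5 populations by an exact permutation F test over all 1401400 divisions of the arrays, with Benjamini-Hochberg adjustment over the 20 pairs. The ratio differed between populations for 14 of 20 pairs (adjusted p under 0.05), in 11 of the 12 proteins. No share over pairs of unrelated genes was taken, and 66.1% of all single probe sets passed limma's F test as labelled. Whether the count of pairs is particular to paralogs therefore cannot be told. Without both arrays in doubt 12 pairs differed, all among the 14, and the count was 9 without epidermis replicate 3. Of the 14 pairs, 9 kept their call whichever single array was left out. The absolute value of a ratio depends on probe affinity, so only its change between populations is read. All 37 probe sets carry the plain identifier suffix that Affymetrix gives to probe sets designed for a single transcript, but hybridization of a paralog's RNA was not tested.

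RPL17 had the smallest p. The log2 ratio of AT1G27400 to AT1G67430 was -2.02, -2.11 and -2.09 in the columella and -3.21, -3.50 and -3.38 in the cortex. It was -2.14, -2.68 and -2.36 in the epidermis, -2.51, -2.75 and -2.64 in the endodermis and -2.44, -2.19 and -2.86 in the stele. The cortex arrays lay below all others and the columella arrays above, with the remaining populations overlapping in between. The population means ranged over 1.29 log2 units (exact permutation p = 0.00099, adjusted p = 0.0125). Both genes were lower in the cortex, by -2.01 for AT1G27400 and by -1.04 for AT1G67430.

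In the RPL7 family the outlying gene was AT2G44120. Its log2 ratio to AT3G13580 was -0.20, -0.06 and -0.05 in the columella, 1.54, 1.38 and 1.81 in the epidermis, and 2.24, 1.11 and 0.66 in the stele, with 0.79 to 1.20 in the cortex and 0.33 to 0.79 in the endodermis. The columella was below all other arrays, and stele replicate 1 was the highest of all. The range was 1.68 (exact permutation p = 0.0031, adjusted p = 0.0125). The ratio of AT2G01250 to AT2G44120 also differed (range 1.89, exact permutation adjusted p = 0.0205), as did AT2G01250 to AT3G13580 (range 0.91, exact permutation adjusted p = 0.025). Each of these last 2 calls was lost without epidermis replicate 3 (adjusted p = 0.0526 and 0.0578), and the latter also without cortex replicate 1 (0.117) or cortex replicate 2 (0.0838).

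RPL14 divided in a like way. The log2 ratio of AT2G20450 to AT4G27090 was -4.36, -4.01 and -4.33 in the columella and -1.83, -2.62 and -1.91 in the epidermis. It was -1.48, -2.97 and -3.00 in the stele, -3.56, -2.68 and -3.04 in the cortex and -3.16, -3.54 and -3.03 in the endodermis. The columella lay below all other arrays, and stele replicate 1 was the highest of all. The range was 2.11 log2 units, or 4.32-fold (exact permutation p = 0.0036, adjusted p = 0.0125). AT4G27090 itself differed by 0.31 in the columella and 0.36 in the epidermis, neither of them called.

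RPL15, a core protein of the large subunit, had a ratio of AT4G16720 to AT4G17390 of 1.67, 1.47 and 1.11 in the columella, 0.61, 0.52 and 0.15 in the epidermis, and 0.70, 0.41 and -0.02 in the stele. Cortex (0.83, 1.12 and 1.44) and endodermis (0.82, 1.06 and 1.21) lay with the columella, above all epidermis and stele arrays. The range was 1.05 (exact permutation p = 0.0038, adjusted p = 0.0125).

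RPL10a, the protein of the mobile stalk at which used tRNA leaves, had 3 tested genes. AT2G27530, known as PIGGYBACK1 from mutants with altered leaf polarity, over AT5G22440 gave log2 ratios of 1.03, 1.04 and 0.78 in the columella and 0.15, -0.26 and 0.15 in the endodermis. In the epidermis the ratio was 0.78, 0.55 and 0.92, in the stele 0.66, 0.13 and 0.37, and in the cortex 0.04, 0.47 and 0.28. Columella and epidermis overlapped at the high end, endodermis and cortex at the low end, and the stele reached from the cortex values to those of the epidermis. The range was 0.94 (exact permutation p = 0.0026, adjusted p = 0.0125). AT1G08360 over AT5G22440 differed as well (range 1.04, exact permutation adjusted p = 0.0125). For AT1G08360 over AT2G27530 the p adjusted over pairs was 0.412 in the exact permutation test, with a ratio of 1.85 on endodermis replicate 2 and 0.65 to 0.67 on the other endodermis arrays. Without endodermis replicate 2, the array with the highest 3′ to 5′ ratio, the adjusted p was 0.0144. The part of that ratio in the result was not tested.

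**Figure D5:**
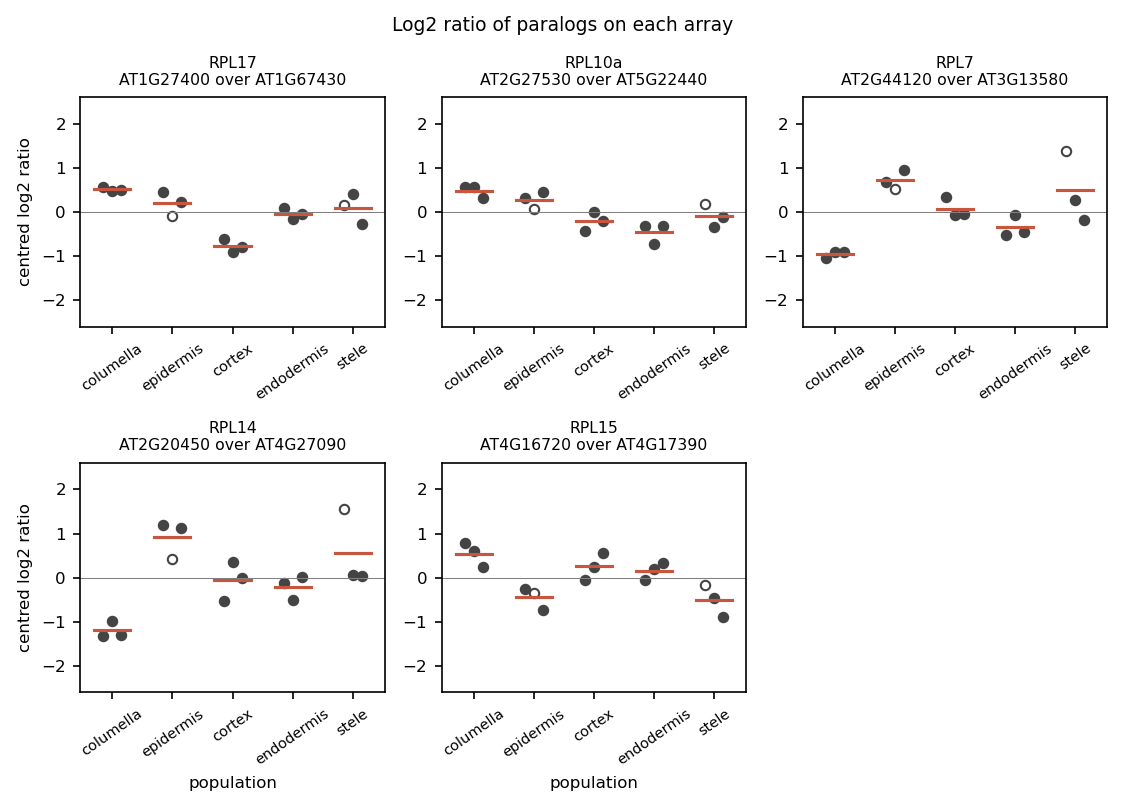
Log2 ratio of 2 paralogs on each array, centred on its mean over populations (y axis), for 5 of the 6 pairs of smallest exact p; red bars are population means and open circles the 2 arrays in doubt. The columella stands at an extreme in all 5 panels, and the cortex lies lowest for RPL17.

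The other called pairs had the following ranges. In RPS9, AT5G15200 over AT5G39850 was 4.59, 5.08 and 4.85 in the columella and 5.98 to 7.14 on all other arrays, a range of 1.69 (exact permutation adjusted p = 0.0205). AT5G39850 itself lay at 4.27, 4.29 and 4.73 in the cortex, near the lowest value possible. The cortex ratios of this pair therefore depend on the value added before the log. In RPS7, AT1G48830 over AT3G02560 ranged over 1.20 from endodermis to epidermis (exact permutation adjusted p = 0.0138). RPS4 (AT2G17360 over AT5G07090, range 0.97) and RPL7a (AT2G47610 over AT3G62870, range 1.00) both had an adjusted p of 0.0371 in the exact permutation test. Both calls were lost without both arrays in doubt (0.0729 and 0.0768) and in 9 of 15 fits with a single array left out.

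The 3 pairs with the smallest ranges were of RPS7, RPL12 and RPL4. AT1G48830 over AT5G16130 (RPS7) stayed between -0.61 and -0.04 on all 15 arrays, with a range of means of 0.28 (exact permutation adjusted p = 0.214). AT2G37190 over AT5G60670 (RPL12, at the factor-binding site of the large subunit) had a range of 0.30 (exact permutation adjusted p = 0.983). Its replicates spread widely, over 0.43 to 2.66 in the epidermis alone. With such a spread this p does not show that the ratio was equal between populations. AT3G09630 over AT5G02870 (RPL4, which in yeast lines the exit tunnel) ranged over 0.39 and was called (exact permutation adjusted p = 0.0145). Its ratio was -0.55, -0.48 and -0.54 in the endodermis and -0.30, -0.19 and 0.10 in the epidermis, and the call was lost without epidermis replicate 3 (adjusted p = 0.0593).

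Other genes of the cytosolic ribosome, from a second list, were low in the cortex and high in the stele too. Of 25 further large subunit loci 14 were tested, 13 passed the F test, 9 were called lower in the cortex and 7 higher in the stele, beside 66.1%, 14.6% and 6.5% of all probe sets. Of 24 further small subunit loci 13 were tested, 11 passed, 9 were called lower in the cortex and 7 higher in the stele. Their cortex differences ran from -2.27 to -0.62 (median -1.13) and from -2.76 to -0.15 (median -1.21). The cortex counts were 9 and 9 and the stele counts 13 and 10 without both arrays in doubt, beside 16.4% and 12.9%. Among them AT4G30800, of the small subunit, had the widest pattern, at -2.76 ± 0.34 in the cortex (limma adjusted p = 1.8e-05), 2.51 ± 0.34 in the stele and -1.77 ± 0.34 in the columella. AT4G29410, of the large subunit, differed by -2.27 ± 0.35 in the cortex.

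The acidic P proteins form the flexible stalk that recruits elongation factors to the large subunit. All 12 listed genes were tested and 8 passed the F test, a share close to the 66.1% of all probe sets. In the cortex 6 were called lower, beside 14.6% of all probe sets, and 5 were called higher in each of stele and epidermis, beside 6.5% and 6.95%. Without both arrays in doubt 10 passed, beside 83.1%, and 6 were called lower in the cortex, beside 16.4%. The stele count was then 7 and the epidermis count 5, beside 12.9% and 11.6%. AT3G11250, of the stalk base protein P0, differed by -1.84 ± 0.20 in the cortex and 1.26 ± 0.20 in the epidermis (limma adjusted p = 4.5e-06 and 0.00064).

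Nuclear genes for ribosomal proteins of the plastid, which has its own ribosome, were also listed, but few had a named probe set. Of 25 listed loci 6 had a named probe set and 5 were tested, of which 2 passed the F test, beside 66.1% of all probe sets. As labelled 0 were called in any population, beside 3.42% to 14.6% of all probe sets for each population and direction. Their median cortex difference was 0.25, with a range of -0.98 to 0.70. Without both arrays in doubt 1 was called lower in the epidermis, beside 12.4%, and 1 higher in the stele, beside 12.9%. With 5 genes tested, counts of 0 or 1 cannot be told from these shares. There was no test of the difference between the lists, and these values are a description.

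Of the translation factors few had a named probe set. Both tested genes of the elongation factor list, AT5G12110 and AT5G19510, passed the F test, beside 66.1% of all probe sets. Their cortex differences of -0.75 and -0.78 were under the threshold of size. Without both arrays in doubt only 1 of them was tested. Of 3 tested initiation factor genes, AT4G20980 was called lower in the cortex (-1.36), beside 14.6% of all probe sets. EIF4A-2, an RNA helicase subunit gene, differed by -0.31 there. With so few genes these counts cannot be told from the shares. None of 9 listed regulators of translation and ribosomal protein expression had a named probe set.

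Genes of ribosome assembly and of cell division were looked at too, with 2 tested of each. Of all probe sets 14.6% were called lower in the cortex. Called higher were 6.95% in the epidermis, 6.5% in the stele and 7.83% in the endodermis. With 2 genes in a list, counts are too small to be compared with these shares. The 2 tested nucleolar genes, AT3G12860 and AT3G05060, both of the box C/D small nucleolar ribonucleoprotein that methylates ribosomal RNA, differed by -4.12 ± 0.43 and -3.14 ± 0.37 in the cortex. They were called higher in the epidermis (3.35 and 1.62) and in the stele (3.16 and 1.93). The 2 Aurora kinase genes, which act in mitosis, differed by -1.92 ± 0.27 (AUR1) and -3.72 ± 0.20 (AUR2) in the cortex, both called lower. In the stele AUR1 was called higher (1.23) and AUR2 differed by 0.85, while AUR2 was called higher in the endodermis (1.50), where 0 ribosomal protein genes were called. In the epidermis 1 of the 2 Aurora genes was called higher (1.10), and 0 without both arrays in doubt. On the cortex arrays AUR2 lay between 4.10 and 4.92, near the lowest value possible. The part of cell division, or of how much meristem each sort held, in the ribosomal protein results was not tested.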

How the data were processed

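The deposited table gives the authors' MAS5 signal intensity for 22810 probe sets on each of 15 arrays, and MAS5 is named in the submitters' processing notes; per the labels, RNA was amplified in a two-cycle protocol, which shortens it and can weaken probe sets far from the 3′ end. Each array has the same trimmed mean of 250.02 to 250.03, so the authors scaled the arrays before deposit, and array medians ranged from 46.1 to 80.9. No counts exist; the number of arrays limits the precision. These signals were quantile-normalized, the 40th percentile of each array was taken, and 64 control probe sets were then dropped. Probe sets above that percentile on at least 3 arrays were kept, 16 was added and log2 taken. limma 3.58.1 (R 4.3.3) fitted 5 population means with a variance trend. Each population was compared with the unweighted mean of the other 4, and p was adjusted by Benjamini-Hochberg over 16126 probe sets. Standard errors are those of the fit. Paralog ratios were tested by exact permutation in Python 3.11.15, with the pair's log2 ratio on each array as the value.

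Probe sets were named from GEO's platform annotation: 13513 carry 1 gene symbol, 503 several and 8794 none, and 13436 were matched to a locus. That annotation mostly gives locus codes, and the protein each locus encodes follows the usual Arabidopsis ribosomal protein nomenclature. No array build or sequence was used here. The members and gene lists were chosen with earlier results of these data known. The genes named by rule are the 3 called members of largest and of most negative difference in each population, the 6 paralog pairs of smallest p, the 3 pairs of smallest range, the members of highest and lowest mean, those not passing the F test, those under the filter and up to 3 genes of each other list. Others named were chosen after their values were seen. One ribosomal protein is counted but not reported here by name. Same-numbered arrays deviated together in 6 of 30 pairs (correlation over 0.1), so the replicate numbers were not taken to pair samples. The alternatives were the deposited scaling, pseudocounts of 1 and 64, no filter and a 60th percentile filter, no variance trend, array weights, a replicate block, adjusted p alone, a limma test of the ratios, and leaving out each array or both arrays in doubt. The scripts were tested on simulated data.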

Additional observations from a re-analysis of the deposited data

How the results depend on the processing

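No called difference of a named gene changed sign under any alternative. Uncalled values near 0 did: the endodermis median of the fitted differences was 0.01 without endodermis replicate 3, and the large minus small subunit median ran from -0.04 to 0.04 in the epidermis and from -0.08 to 0.15 in the stele with single arrays left out. The number of genes called higher in the stele was 33 with array weights and 33 without both arrays in doubt, and 11 to 34 when single arrays were left out. Shares over all probe sets were taken only in the main setting (6.5% higher in the stele) and without both arrays in doubt (12.9%). For the other settings, whether a shift in a count concerns these genes or all probe sets cannot be told. Genes called higher in the epidermis numbered 6 without both arrays in doubt (11.6% of all probe sets), 16 at adjusted p alone (13.9%) and 7 to 12 with single arrays left out. At adjusted p alone 7 genes were lower in the columella (19.8% of all probe sets) and 1 in the endodermis (8.1%). With a pseudocount of 64 the count of genes higher in the columella was 0, since AT5G39850 fell to 0.90. With single arrays left out, 28 to 35 genes passed the F test, 25 to 33 were lower in the cortex, 3 to 5 lower and 1 higher in the columella, and 9 to 16 paralog pairs differed. With the replicate block 31 genes passed the F test and 11 pairs differed. The cause of these shifts was not tested. The large minus small subunit median in the columella was 0.10 in the deposited scaling and 0.03 to 0.10 with single arrays left out. Levels near the lowest value possible, as for AT5G39850 in the cortex, limit how large a difference can appear.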
